A study of Mus musculus with 7 samples.

Results

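Primary mouse rib chondrocytes were profiled for H3K27ac in 4 libraries that form 2 pairs, and the promoters marked in both libraries of one pair and in neither library of the other were compared. One pair was WT_H3K27ac and E160E308_Del_H3K27ac, called the genotype pair here. The other was Cho_H3K27ac_Rep1 and Cho_H3K27ac_Rep2, called the replicate pair. These are 4 of the 7 libraries of the series, and 6 of the 7 have a peak list. A promoter counted as marked when a peak of the list came as near as 1 kb to the gene start (transcription start site, TSS). Of 20156 protein-coding promoters that could be placed in the builds of all lists, 443 (2.2%) were marked in WT and deletion and in neither replicate. In the reverse direction, 34 promoters (0.169%) were marked in both replicates and in neither WT nor deletion.

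The study searched for chondrocyte enhancers of Sox9 and removed 2 of them, E160 and E308, from the mouse genome. All chondrocytes came from the rib cartilage of newborn mice, were freed with collagenase and were used within 2 passages in serum-containing medium. The WT library has the genotype WT, and the deletion library comes from mice homozygous for the loss of E160 and of E308, obtained with CRISPR/Cas9 in C57BL/6J embryos in 2 steps. Wild-type and double-deletion mice were offspring of heterozygous parents. For the replicate pair the labels give no genotype, and the number of animals behind a library is not given in the sources used here. Each genotype has 1 library, so that no condition of the genotype pair has a replicate. Other lists used beside these were chondrocyte H3K4me2 and H3K27ac from primary dermal fibroblasts of newborn skin.

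Acetylated lysine of histone H3 (H3K27ac) accompanies regulatory DNA in use, at gene starts as well as enhancers. The methyl mark H3K4me2 covers such elements more widely, also where activity is low. Differentiated chondrocytes are known for a matrix of type II, IX and XI collagens and aggrecan under the control of SOX9. In monolayer culture such cells are known to lose this program, to divide and to turn on fibroblast genes such as type I collagen.

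The 4 H3K27ac lists of chondrocytes held between 20450 and 33369 peaks on chromosomes 1 to 19 and X. WT marked 10103 promoters, deletion 9519, replicate 1 8909 and replicate 2 8666. The lists were not made alike. Replicate 1 has a list with 1 score per peak and no score under 50, the layout also of the fibroblast and H3K4me2 lists, whereas WT, deletion and replicate 2 have MACS2 narrowPeak lists. The lowest −log10 q-value was 2.05 in WT, 2.01 in deletion and 1.33 in replicate 2. Positions of replicate 2 were those of GRCm38, and those of the other lists mm9, so each list was compared with gene starts of its own build. Throughout, the rank of a peak is the percentage of peaks of its own list with a score at least as high, so that a low rank is a strong peak. Values of scores were never set against each other between lists, only the order that they give within a list.

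Defining promoters were checked first. Acan, the gene for the cartilage proteoglycan aggrecan, was marked in all 4 lists, at rank 36.3% in WT, 57.1% in deletion, 6.22% in replicate 1 and 13.4% in replicate 2. Sox9 was marked at rank 3.37% in WT, 4.98% in deletion and 7.27% in replicate 2, but replicate 1 had no peak within 15.2 kb of its TSS. Col2a1, the gene for type II collagen, was marked at 12.6% in WT, 18.6% in deletion and 11.5% in replicate 2, and the nearest peak of replicate 1 lay 3.60 kb away. Replicate 1 therefore went against its label at these promoters and not at Acan. Col1a1, the type I collagen gene, ranked at 4.48% in WT and 12.3% in deletion, against 51.7% in replicate 1 and 54.1% in replicate 2. In the fibroblast list Acan and Col2a1 were unmarked, with no peak within 87.8 kb, and Col1a1 was unmarked as well, with the nearest peak 21.2 kb away.

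Replicate 1 also stood apart by its scores. Among the 7643 promoters marked in all 4 lists, Spearman's rho between the scores was 0.967 for WT and deletion. It was 0.873 for WT and replicate 2, 0.867 for deletion and replicate 2, but 0.594 for replicate 1 and replicate 2. Replicate 1 had a rho of 0.580 with WT and 0.573 with deletion. These are descriptions across promoters, which share libraries and depth within a list and are not independent. By order of scores, replicate 2 was thus closer to the genotype pair than to its own partner. Against the fibroblast list, which has the layout of replicate 1, rho over 7353 promoters was 0.493 for replicate 1 and 0.6998 for WT, 0.699 for deletion and 0.685 for replicate 2. Results that rest on replicate 1 are given below with and without it.

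Promoters of members of both sets are shown here, from RefSeq, GRCm38.p6, written 5′ to 3′ on the strand of the gene. They are the 250 bases before the TSS. For each direction they are the first 3 members, by the weaker of their ranks, that had a RefSeq start within 1 kb of the compared one, followed by members on a gene list or far from any peak, which were chosen after their values were seen. The printed sequence ends at the compared start in Col8a2, Lfng, Postn, Hnrnpm, Efna1 and Enpp1. It ends 9 bp downstream of it in Bub1b, 306 bp in Lpxn, 512 bp in Cdc25b, 807 bp in Ednrb and 929 bp in Pdgfra, so that in these a neighbouring start of the same gene is shown. Capitals mark matches on either strand to the motifs searched. Those present are the GC box (GGGCGG), the CCAAT box (CCAAT), the E-boxes CACGTG and CAGCTG, the TATA box (TATAAA), the CHR (TTTGAA) and, once in Bub1b, an interferon element.

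Genes whose compared start was marked in WT and deletion and in neither replicate are shown at Col8a2 (chr4:126286544-126286793, + strand), Pdgfra (chr5:75152001-75152250, + strand), Lfng (chr5:140607091-140607340, + strand), Cdc25b (chr2:131186698-131186947, + strand), Bub1b (chr2:118597961-118598210, + strand) and Postn (chr3:54359017-54359266, + strand).
Col8a2: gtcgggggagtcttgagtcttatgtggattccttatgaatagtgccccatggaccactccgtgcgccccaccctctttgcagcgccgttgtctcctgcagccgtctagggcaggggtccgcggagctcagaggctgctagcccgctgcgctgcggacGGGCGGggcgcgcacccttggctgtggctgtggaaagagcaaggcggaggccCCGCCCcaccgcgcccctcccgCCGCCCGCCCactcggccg
Pdgfra: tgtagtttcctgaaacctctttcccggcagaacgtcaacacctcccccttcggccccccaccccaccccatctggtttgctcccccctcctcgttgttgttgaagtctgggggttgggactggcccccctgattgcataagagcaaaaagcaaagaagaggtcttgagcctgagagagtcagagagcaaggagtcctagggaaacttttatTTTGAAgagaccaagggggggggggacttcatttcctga
Lfng: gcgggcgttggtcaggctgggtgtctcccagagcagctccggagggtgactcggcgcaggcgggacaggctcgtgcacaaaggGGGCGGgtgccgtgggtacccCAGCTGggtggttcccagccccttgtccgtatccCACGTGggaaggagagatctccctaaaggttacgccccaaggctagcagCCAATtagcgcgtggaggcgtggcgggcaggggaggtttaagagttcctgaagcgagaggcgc
Cdc25b: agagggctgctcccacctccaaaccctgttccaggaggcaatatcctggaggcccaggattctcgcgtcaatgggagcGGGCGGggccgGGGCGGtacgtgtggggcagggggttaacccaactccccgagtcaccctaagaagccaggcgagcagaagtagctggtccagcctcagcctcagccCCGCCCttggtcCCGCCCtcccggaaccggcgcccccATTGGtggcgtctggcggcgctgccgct
Bub1b: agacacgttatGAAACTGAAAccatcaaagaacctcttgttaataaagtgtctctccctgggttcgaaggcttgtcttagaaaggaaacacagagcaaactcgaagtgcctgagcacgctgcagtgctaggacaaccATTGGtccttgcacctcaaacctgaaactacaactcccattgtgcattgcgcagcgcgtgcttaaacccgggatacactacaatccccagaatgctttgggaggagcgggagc
Postn: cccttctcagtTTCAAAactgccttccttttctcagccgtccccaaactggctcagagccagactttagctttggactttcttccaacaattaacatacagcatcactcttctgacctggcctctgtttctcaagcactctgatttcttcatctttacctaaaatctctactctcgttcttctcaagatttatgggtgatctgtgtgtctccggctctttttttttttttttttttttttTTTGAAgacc

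Genes whose compared start was marked in both replicates and in neither WT nor deletion are shown at Hnrnpm (chr17:33685459-33685708, − strand), Lpxn (chr19:12795943-12796192, + strand), Efna1 (chr3:89280952-89281201, − strand), Ednrb (chr14:103843702-103843951, − strand) and Enpp1 (chr10:24712160-24712409, − strand).
Hnrnpm: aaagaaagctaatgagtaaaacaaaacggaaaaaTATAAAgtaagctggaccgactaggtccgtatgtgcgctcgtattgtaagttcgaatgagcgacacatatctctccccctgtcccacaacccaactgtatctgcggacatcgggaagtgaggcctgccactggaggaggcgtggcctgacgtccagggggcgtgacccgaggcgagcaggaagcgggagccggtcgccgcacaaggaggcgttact
Lpxn: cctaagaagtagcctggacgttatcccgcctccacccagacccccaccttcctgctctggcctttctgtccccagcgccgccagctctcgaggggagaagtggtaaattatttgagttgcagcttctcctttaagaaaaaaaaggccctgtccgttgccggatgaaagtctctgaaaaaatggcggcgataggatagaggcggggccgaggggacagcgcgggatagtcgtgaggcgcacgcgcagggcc
Efna1: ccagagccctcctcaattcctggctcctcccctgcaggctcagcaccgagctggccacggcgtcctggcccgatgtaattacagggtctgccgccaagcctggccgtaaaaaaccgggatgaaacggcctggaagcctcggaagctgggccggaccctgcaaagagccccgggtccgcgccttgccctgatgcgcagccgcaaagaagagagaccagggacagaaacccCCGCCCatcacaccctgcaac
Ednrb: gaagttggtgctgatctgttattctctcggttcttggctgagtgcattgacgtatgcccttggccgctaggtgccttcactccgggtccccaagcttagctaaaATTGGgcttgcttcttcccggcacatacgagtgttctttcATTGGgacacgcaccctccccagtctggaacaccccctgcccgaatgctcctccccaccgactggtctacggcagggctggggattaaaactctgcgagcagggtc
Enpp1: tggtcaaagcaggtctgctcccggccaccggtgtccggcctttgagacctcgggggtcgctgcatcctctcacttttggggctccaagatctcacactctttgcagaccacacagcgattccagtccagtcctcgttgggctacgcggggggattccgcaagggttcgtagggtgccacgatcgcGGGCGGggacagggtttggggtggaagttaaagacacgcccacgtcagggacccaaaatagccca

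The 4 lists agreed at most promoters. All 4 marked 7643 promoters and none marked 9535. Exactly 3 lists marked 1490 promoters, exactly 2 marked 667 and exactly 1 marked 821. Of the 667, 443 joined WT with deletion, 34 joined both replicates, 127 joined WT with replicate 1 and 63 joined WT with replicate 2. Deletion contributed almost nothing that WT lacked. Of its 9519 marked promoters, 9518 were marked in WT too, and 98.9% of its 25213 peaks overlapped a WT peak. By contrast, replicates 1 and 2 shared 7735 promoters, 86.8% of those of replicate 1 and 89.3% of those of replicate 2. A promoter of the deletion list therefore needed only to be absent from both replicates to enter the 443.

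**Figure D1:**
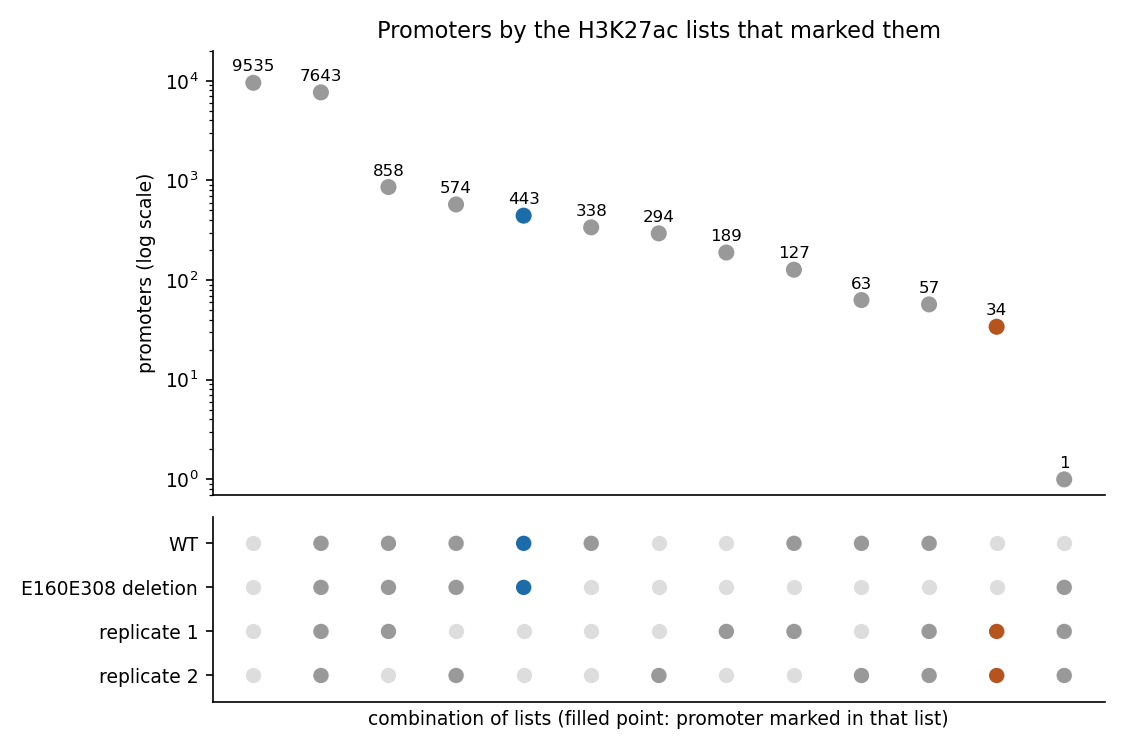
Number of promoters (log scale) for each combination of the 4 H3K27ac lists, with filled points below showing which lists marked them. The blue point is the 443 promoters of WT and deletion alone, the orange-brown point the 34 promoters of both replicates alone, and a single promoter was marked in deletion without WT.

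Read against what each pair marked, the 443 were 4.65% of the 9518 promoters marked in WT and deletion, and the 34 were 0.44% of the 7735 marked in both replicates. The larger set outnumbered the smaller by 13.0 to 1. With the same number of top peaks taken from each list the counts were 385 and 68, and with peak midpoints in place of peak edges 478 and 82, so that the ratio was smaller in both. Under this rule a set can only stay as it is or grow when a library is left out. With replicate 1 left out, 1301 and 328 promoters belonged to the sets, and with replicate 2 left out, 1017 and 223. Without deletion the counts were 781 and 35, and without WT they were 443 and 91. The genotype pair had the larger set in all 16 alternatives tried. No test was made and no p is given, since the smallest two-sided p of an exact permutation test of 2 libraries against 2 is 0.333.

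The 443 were weak peaks of their lists. Their median rank was 45.1% in WT (quartiles 36.03% and 56.06%) and 67.9% in deletion (53.7% and 80.4%). Promoters marked in all 4 lists had median ranks of 13.4% in WT and 17.8% in deletion. Median peak width was 693 bp in WT and 394 bp in deletion, against 1609 bp and 1235 bp at promoters marked in all 4. Median fold enrichment over the local background was 7.79 in WT and 5.26 in deletion, against 22.2 and 15.0. The 443 promoters lay at 427 distinct WT peaks, so a few neighbouring genes shared a peak. The 34 promoters of the replicate pair had median ranks of 54.4% in replicate 1 and 45.7% in replicate 2, against 21.7% and 21.4% at promoters marked in all 4.

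When the promoters marked in both libraries of a pair were ordered by score, the missing ones lay at the bottom. Of the 951 promoters in decile 10, the lowest by WT score, 288 (30.3%, exact 95% interval 27.4 to 33.3) were unmarked in both replicates. In decile 9 the share was 10.5% (8.64 to 12.6), in decile 8 3.57% (2.49 to 4.96), and in each of deciles 1 to 7 it was 0.840% or less. Ordered by deletion score, decile 10 gave 30.6% (27.7 to 33.6). For the replicate pair decile 10 gave 1.68% (0.898 to 2.86) by replicate 1 and 2.07% (1.19 to 3.34) by replicate 2. The intervals of the genotype pair lay above those of the replicate pair in the 3 lowest deciles. These intervals cover counting error over promoters and not differences between libraries. How far depth set these shares was not tested, since no list gives read numbers. With the narrowPeak lists cut at −log10 q of at least 2.1, the sets held 446 and 34 promoters. The shares by decile were not computed at that threshold, and replicate 1 has no q-values to cut.

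**Figure D2:**
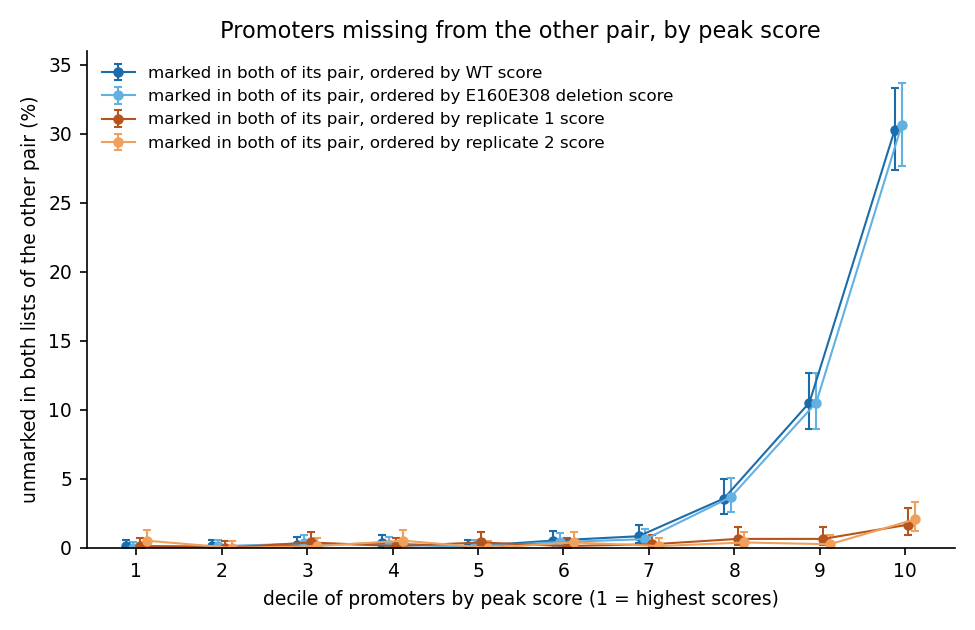
Share of promoters unmarked in both lists of the other pair (%, exact 95% intervals) by decile of peak score, where decile 1 holds the highest scores. The blue lines, ordered by WT or by deletion, climb from under 1% to 30.3% and 30.6% in decile 10, and the orange lines, ordered by replicate 1 or 2, reach 1.68% and 2.07%.

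An absent promoter peak was not always an absent peak. Of the 443, a peak lay within 2 kb of the TSS in 25 promoters (5.64%) for replicate 1 and in 27 (6.09%) for replicate 2. Within 5 kb the shares were 16.3% and 17.8%, and within 10 kb 27.8% and 29.3%. At the 9535 promoters unmarked in all 4 lists, 4.91% had a peak of replicate 1 within 5 kb and 3.62% one of replicate 2. In 344 members (77.7%) neither replicate had a peak within 5 kb. Near misses were a larger part of the 34, where 14 (41.2%) had a WT peak and 9 (26.5%) a deletion peak within 5 kb, and 20 had neither.

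The strongest members were mostly such near misses. Of the 12 members of the genotype pair with the best weaker rank, 9 had a replicate peak within 2 kb, and 2 had none within 5 kb. Midn, the gene for midnolin, ranked at 2.35% in WT and 6.92% in deletion, and replicate 1 had a peak 1.35 kb and replicate 2 one 1.94 kb from its TSS. Pdgfa, a platelet-derived growth factor chain, ranked at 8.34% and 8.67%, with peaks 1.07 kb away in replicate 1 and 4.44 kb away in replicate 2. Both had a replicate 1 peak within 2 kb, outside the window of 1 kb. In neither gene did the compared start keep, between the builds, the offset of neighbouring starts. That difference concerns replicate 2 alone, since replicate 1 was compared at the same mm9 starts as WT and deletion. Where promoters were placed by sequence, as given below, both genes left the set, and the cause was not tested. Zfp462, a zinc finger gene, ranked at 5.99% and 9.16%, with the nearest peaks 2.92 kb and 1.03 kb away. Plod2, a lysyl hydroxylase of collagen crosslinking, ranked at 10.2% and 10.5%, with peaks at 16.6 kb and 1.82 kb. The DNA methyltransferase gene Dnmt3a ranked at 11.01% and 15.46%, with peaks at 1.17 kb and 5.00 kb. For Metap2, a methionine aminopeptidase, and Fuz, a planar polarity effector of ciliogenesis, a replicate peak lay 1.25 kb and 1.44 kb away. Klhl17 had a replicate 1 peak at 1.01 kb, just outside the window, and its nearest replicate 2 peak lay 610 kb away. Replicate 2 had no peak over that end of chromosome 4, and whether its list covers it was not tested.

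Col8a2, a short-chain collagen gene, was unmarked with more room. It ranked at 20.4% in WT and 22.8% in deletion, and the nearest replicate peaks lay 8.27 kb and 13.6 kb away. The fibroblast list did not mark it, whereas H3K4me2 did, at rank 21.0%. Ankrd46, an ankyrin repeat gene, ranked at 23.0% and 32.4%, with no replicate peak within 73.2 kb. Lfng, which modifies Notch receptors, ranked at 28.4% and 27.8%, with replicate peaks 3.48 kb and 2.38 kb away. Below these, chosen after their values were seen, stood Mmp23, a membrane metalloproteinase gene, at 18.7% and 33.6% with no replicate peak within 14.7 kb. Ptn, the heparin-binding growth factor pleiotrophin of growing cartilage, ranked at 24.5% and 40.8% with none within 96.1 kb. Agrn, the gene for agrin, ranked at 26.0% and 37.6% with none within 38.4 kb. Mmp23 and Agrn lie in the same stretch of chromosome 4 as Klhl17, where replicate 2 had no peak at all. Their absence from replicate 2 therefore does not speak to these promoters alone.

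Start sites could also be placed by sequence. RefSeq promoters of 300 bases were looked up letter for letter in mm9, and 15024 of the compared genes had at least 1 promoter found in both builds. With a gene marked at any such promoter, the sets held 319 and 15 genes. Of the 443 members, 326 had a match and 270 (82.8%) stayed in the set. Of the 34, 25 had a match and 12 (48.0%) stayed. Of the 12 strongest members of the genotype pair, 8 had a match and 4 stayed, namely Metap2, Col8a2, Lfng and Klhl17. Midn, Pdgfa, Dnmt3a and Pdgfra left it. Hnrnpm, Lpxn and Efna1, printed above for the replicate pair, had a match and left their set too.

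The fibroblast list, which the rule did not use, marked 283 of the 443 (63.9%, exact 95% interval 59.2 to 68.4). It marked 11 of the 34 (32.4%, 17.4 to 50.5), 96.2% of promoters marked in all 4 lists and 3.54% of those marked in none. The interval of the 34 lies below that of the 443, and both sets lie below the promoters that all lists shared. Taken the other way, 772 promoters were marked in fibroblasts and in neither replicate, and 283 of them (36.7%, 33.3 to 40.2) were marked in WT and deletion. Of the 9544 marked neither in fibroblasts nor in a replicate, 1.68% were. In the mirror image, 429 promoters were marked in fibroblasts and in neither WT nor deletion, and 11 of them (2.56%, 1.29 to 4.54) were marked in both replicates. Of the 9623 marked neither in fibroblasts nor in WT or deletion, 23 (0.239%, 0.152 to 0.358) were. The share was thus higher at fibroblast promoters in both directions. Without replicate 1 the fibroblast shares of the 2 sets were 78.9% and 7.32%. Among the 344 members with no replicate peak within 5 kb, the fibroblast share was 68.0%.

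The shares marked by H3K4me2 lay close together. It marked 429 of the 443 (96.8%, 94.8 to 98.3), 32 of the 34 (94.1%, 80.3 to 99.3) and 98.3% of promoters marked in all 4 lists. At promoters marked in none the share was 33.2%. Without replicate 1 the shares were 98.1% of 1301 and 32.3% of 328, and 294 of these 328 were promoters marked in replicate 2 alone. Without replicate 2 the shares were 94.6% of 1017 and 92.4% of 223. The 2 sets thus stayed close with replicate 1 alone for its pair, and not with replicate 2 alone. The labels do not tell which preparation the H3K4me2 library shares.

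**Figure D3:**
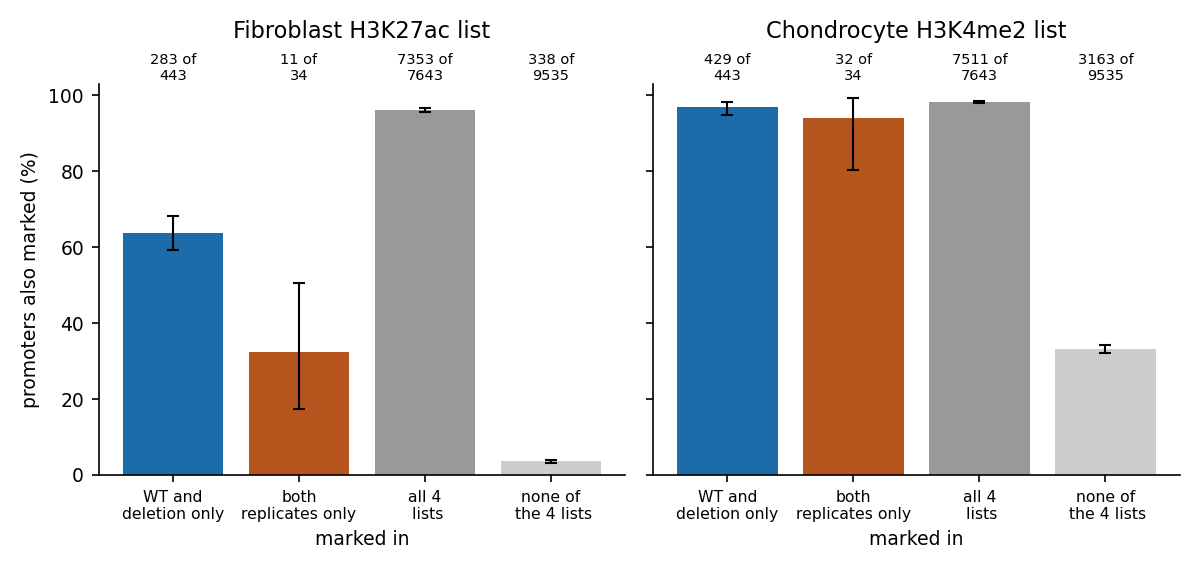
Share of promoters also marked in the fibroblast H3K27ac list (left) and in the chondrocyte H3K4me2 list (right), in %, with exact 95% intervals and the counts above each bar, for promoters of WT and deletion only, of both replicates only, of all 4 lists and of none. The fibroblast share is 63.9% and 32.4% for the 2 sets, and the H3K4me2 share is above 94% for both.

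Gene lists describe what the sets contain, beside the 4.65% of all promoters marked in WT and deletion that both replicates lacked. That background holds over all peak strengths, and the share reached 30.3% in the decile lowest by WT score. Lists and families were not matched for peak strength, so a share above 4.65% cannot be told apart from weak peaks. Of 28 lists, the genotype pair had members on 14, 27 genes in all, and the replicate pair had 2 genes on 2 lists. Cartilage genes were shared in part. Of 37 genes of cartilage matrix and chondrocyte regulators, WT marked 27, deletion 26, replicate 1 23, replicate 2 28 and fibroblasts 8. All 4 chondrocyte lists marked 21 of the 37, and none marked 7. Of the 26 marked in both WT and deletion, none was among the 443, a count too small to tell from the background share. Snorc, a transmembrane proteoglycan of chondrocytes listed as 3110079O15Rik, was the list's only gene among the 34. It ranked at 13.1% in replicate 1 and 41.0% in replicate 2, and WT had a peak 1.26 kb from its TSS while deletion had none within 81.2 kb. Enpp1, a pyrophosphate-generating enzyme on the list of hypertrophic chondrocytes, ranked at 69.5% and 86.4%, with no WT or deletion peak within 63.5 kb. Beside the 0.44% of all promoters marked in both replicates, Snorc was 1 of 22 such promoters of its list (4.55%) and Enpp1 1 of 7 (14.3%).

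Genes of dedifferentiated or fibroblast-like cells were marked at 36 of 40 promoters in WT and 36 in deletion, 24 in replicate 1, 32 in replicate 2 and 32 in fibroblasts. Of the 36 marked in WT and deletion, 4 (11.1%) lacked both replicates. Pdgfra, a receptor of mesenchymal progenitors, ranked at 18.1% in WT and 23.5% in deletion in peaks of 7271 and 4275 bp, with replicate peaks 31.1 kb and 1.65 kb away. Tagln, the actin-binding transgelin of contractile cells, ranked at 29.8% and 40.1%, and the replicates had no peak within 17.4 kb. Fbln2, a fibulin of elastic fibres, ranked at 46.5% and 64.1% with none within 9.63 kb. Postn, the matricellular periostin of perichondrium and periosteum, ranked at 41.2% and 65.3% with none within 174 kb, and neither the fibroblast nor the H3K4me2 list marked it.

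Articular, tendon and perichondrial genes stood out by share on small numbers. Of 28, WT marked 12, deletion 9, replicate 1 7 and replicate 2 4, and 4 of the 9 marked in WT and deletion (44.4%) lacked both replicates. Fgf18, a growth factor of perichondrium and growth plate, ranked at 39.2% and 56.3%, with replicate peaks 12.9 kb and 4.61 kb away. Dkk3, a secreted Dickkopf protein, ranked at 44.0% and 53.7% with none within 45.6 kb. Osr1, a transcription factor of connective tissue and limb mesenchyme, ranked at 41.7% and 73.1% with none within 264 kb. Mkx, the tendon regulator Mohawk, ranked at 63.6% and 94.7% with none within 45.9 kb. Of 37 sclerotome and axial transcription factors, WT marked 19, deletion 15, replicate 1 10 and replicate 2 12, and 3 of the 15 marked in WT and deletion lacked both replicates. Among them, Meox1 ranked at 37.2% and 53.7% and Alx4 at 45.01% and 77.73%.

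Cell cycle and DNA replication genes gave the most members of any list. WT marked all 60 and deletion 58, whereas each replicate marked 46 and fibroblasts 54. Of the 58 marked in WT and deletion, 6 (10.3%) lacked both replicates. Cdc25b, a phosphatase that activates cyclin-dependent kinase at mitotic entry, ranked at 28.3% and 35.1%, with replicate peaks 6.35 kb and 6.04 kb away. E2f7, a repressor of the E2F family, ranked at 31.1% and 46.9% with none within 59.7 kb. The spindle checkpoint kinase genes Bub1b, at 35.0% and 48.99%, and Bub1, at 43.2% and 53.7%, had no replicate peak within 52.1 kb and 39.1 kb. Cenpf, a kinetochore protein gene, ranked at 41.2% and 51.9% with none within 20.3 kb. Cdc6, which loads the replicative helicase, ranked at 54.8% and 59.7% with none within 23.2 kb. All 6 stayed in the set where promoters were placed by sequence. The promoters of Bub1b and Cdc25b printed above each hold a CCAAT box, as did 5 of these 6, 36 of the 49 promoters of the list with a sequence (73.5%) and 39.6% of all promoters with one. The CHR, a letter string known from promoters of mitotic genes, was added to the search after the values were seen. It was in 18 of the 49 promoters of this list with a sequence (36.7%), in 2 of these 6, in 13.5% of the 443 with one and in 15.9% of all.

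The remaining list members were few. Smooth muscle and pericyte genes had 2 of 7, Tagln and the leiomodin gene Lmod1 at 31.1% and 43.1%. BMP and TGF-beta genes had 2 of 37, the BMP antagonist Chrd at 36.03% and 41.44% and the latent TGF-beta binding protein Ltbp1 at 77.5% and 73.1%. Wnt genes had 2 of 22, Dkk3 and the receptor Fzd3 at 41.3% and 81.0%, and FGF genes had Fgf18 alone of 17. One gene each came from the lists of adipocytes (Ebf3, 26.8% and 35.2%), osteoblasts (Ifitm5, 48.0% and 77.7%), heat shock (Hspb1, 66.7% and 84.4%), cholesterol synthesis (Ebp, 52.8% and 91.3%), immediate early genes (Arc, 52.8% and 96.4%) and hypoxia (Mxi1, 56.0% and 98.1%). For immediate early genes that was 1 of 34, and for heat shock 1 of 30, both under the background. It was 1 of 15 for adipocytes, 1 of 8 for osteoblasts, 1 of 21 for cholesterol synthesis and 1 of 24 for hypoxia. The Hedgehog, p53, inflammation and interferon lists had none in either set, of 10, 19, 17 and 12 promoters marked in WT and deletion. Counts this small cannot be told from the background share.

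Lists of other cell types fell apart by how often they were marked. Adipocyte genes were marked at 16 of 26 promoters in WT, 15 in deletion, 13 in replicate 1, 14 in replicate 2 and 16 in fibroblasts. Smooth muscle and pericyte genes were marked at 9 of 20 in WT, 7 in deletion, 4 in replicate 1, 5 in replicate 2 and 7 in fibroblasts. The other lists were rarely marked. Of 35 macrophage and monocyte genes, WT marked 3, deletion 1, replicate 1 5, replicate 2 1 and fibroblasts 3. Replicate 1 alone marked Fcer1g and Msr1, and Tlr4 was marked in all 4 lists. Of 32 genes of other blood cells, WT marked Klf1 and Runx1, and the other 3 chondrocyte lists Runx1 only. Among 34 skeletal muscle genes each list marked 1 or 2, among 43 of keratinocytes and other epithelium 1 or 2, and each chondrocyte list marked 1 of 33 neuronal genes and 2 to 4 of 30 endothelial genes. None of the lists of macrophages, other blood cells, skeletal muscle, epithelium, neurons, endothelium, osteoclasts and Schwann cells had a gene in either set. Each of these had only 1 to 4 promoters marked in both WT and deletion, too few to tell from the background share. A peak list reports only places over a threshold, so that a small share of other cells need not appear in it.

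**Figure D4:**
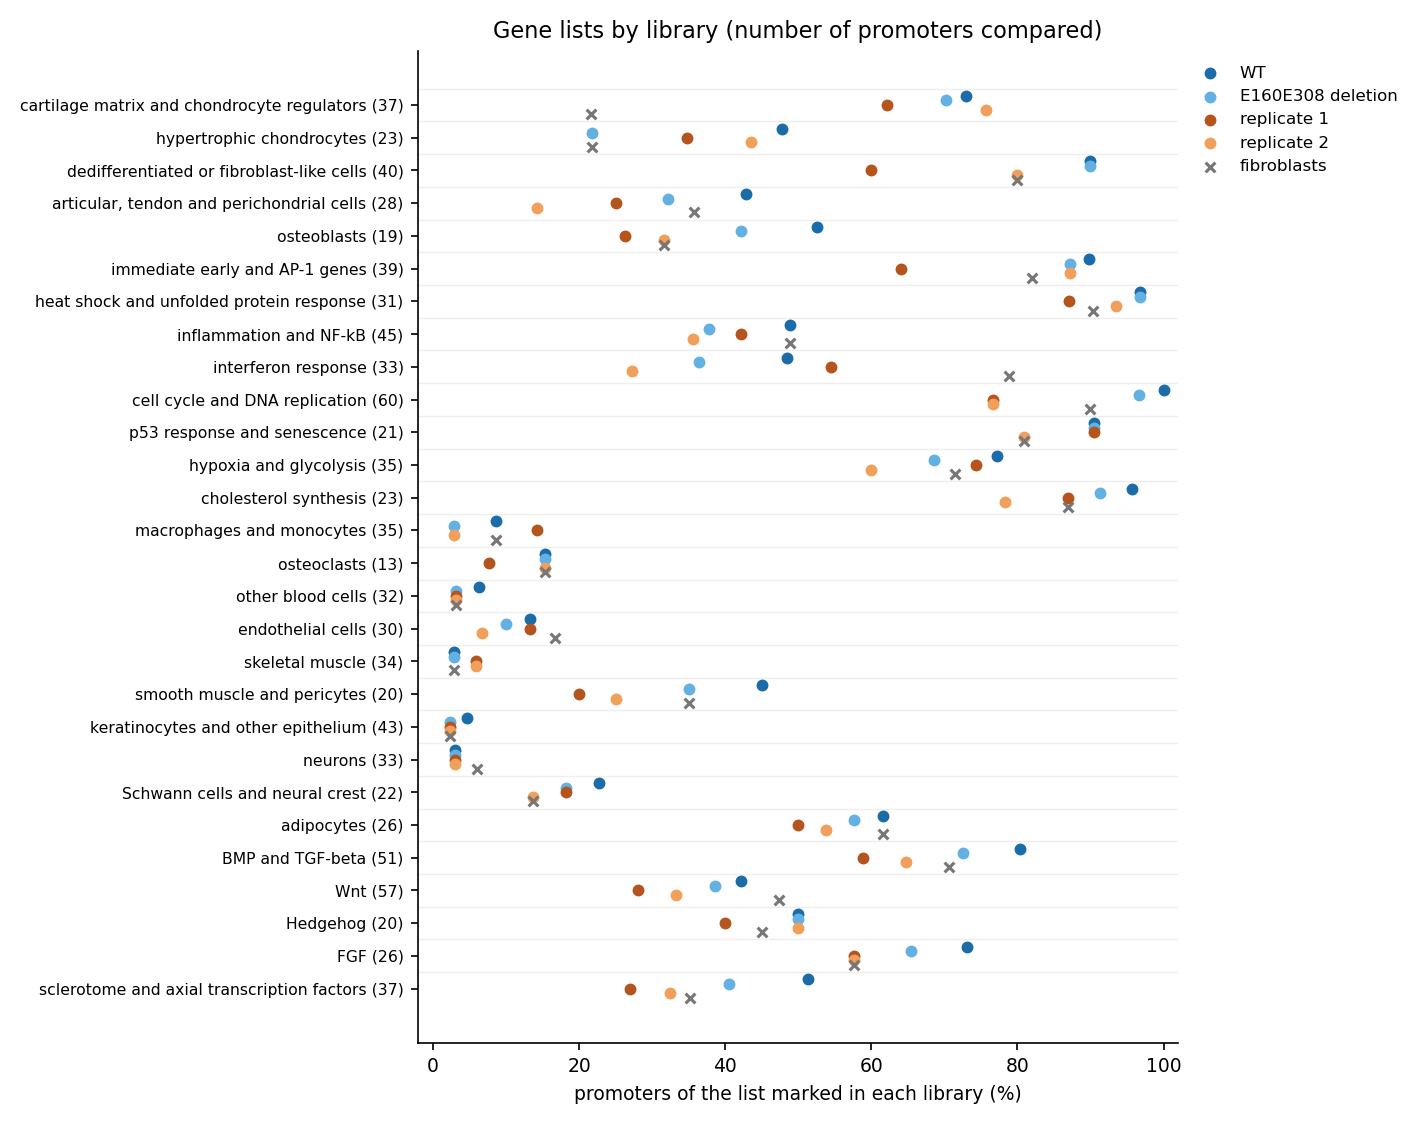
Percentage of the promoters of each gene list marked in WT, deletion, replicate 1, replicate 2 and fibroblasts, with the number of promoters compared in brackets. Cell cycle genes are marked at all 60 promoters in WT and at 46 in each replicate, fibroblast-like genes at 36 of 40 in WT and deletion, and blood, muscle, epithelial and neuronal genes stay low in every library.

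Promoters marked in all 4 lists allowed the order of peaks to be compared, a comparison added after the data were seen. Within each list the 7643 promoters were given a score percentile, here with 100 for the highest score. In WT and deletion both percentiles lay above both replicates at 1774 promoters (23.2%), and at 1773 (23.2%) both lay below. Over all of them the median difference between pair means was 0.213 percentile points. With replicate 1 left out, WT and deletion both lay above replicate 2 at 41.3% of promoters and below it at 41.4%.

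Most cartilage genes marked in all 4 lists were ordered higher in the replicates. Of 21 marked in all 4 lists, 15 had both replicates above WT and deletion and 2 the reverse, with a median difference of −28.9 points (genotype pair minus replicate pair). Without replicate 1 the counts were 16 and 2 and the median −16.9. Acan stood at percentile 5.83 in WT and 4.32 in deletion, against 83.6 in replicate 1 and 67.3 in replicate 2. Col9a2, a type IX collagen gene, stood at 3.43 and 7.27 against 86.4 and 57.0. Col11a2, of type XI collagen, stood at 14.2 and 11.7 against 96.1 and 59.5. Lect1, encoding chondromodulin, stood at 51.3 and 35.1 against 99.5 and 79.0. WT and deletion lay below both replicates at each of these. Comp, the cartilage oligomeric matrix protein gene that tendon also expresses, went the other way, at 58.5 and 70.6 against 34.0 and 24.6. The 21 leave out cartilage genes that replicate 1 did not mark, and 4 of these, all marked in WT, deletion and replicate 2, had better ranks in WT and deletion than in replicate 2. Besides Sox9 they were Sox6, its partner, at 26.8%, 41.97% and 51.5%, Col11a1 at 2.12%, 3.78% and 6.92%, and the transcription factor gene Trps1 at 2.01%, 3.46% and 7.89%. These are ranks in whole lists of 33369, 25213 and 20450 peaks, not percentiles, and were not adjusted for list length. At promoters marked in all 4 lists the median ranks were 13.4%, 17.8% and 21.4%, in the same order.

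Fibroblast-like genes were ordered higher in the genotype pair. Of 23, 13 had WT and deletion above both replicates and 3 the reverse, with a median difference of 25.8 points, and without replicate 1 the counts were 18 and 4 and the median 22.6. Col1a1 stood at percentile 81.9 in WT and 63.7 in deletion, against 14.9 in replicate 1 and 10.7 in replicate 2. Col1a2, its partner chain, stood at 79.7 and 70.9 against 32.9 and 26.6. Tcf4, an E protein transcription factor gene, stood at 92.3 and 93.9 against 24.8 and 38.5. Lum, the small proteoglycan lumican, was one of the 3 exceptions, at 16.0 and 16.0 against 98.8 in replicate 1 and 21.8 in replicate 2.

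Sclerotome and axial transcription factors gave 8 of 9 above both replicates and none below, with a median difference of 33.8 points, and 9 of 9 above replicate 2 alone, with a median of 23.6. Meis2, a TALE homeobox gene, stood at 96.1 and 92.0 against 5.44 and 44.9. Cell cycle genes gave 15 of 40 above and 3 below, with a median of 2.97, and without replicate 1 27 above and 6 below, with a median of 9.73. Cdk1, the mitotic kinase, stood at 56.42 and 58.45 against 10.95 and 20.35, and Mki67, the proliferation antigen, at 34.9 and 38.4 against 1.15 and 5.68. The interferon list rested on replicate 1. Its 9 genes had a median difference of −26.6 points with replicate 1 and 1.90 without it.

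**Figure D5:**
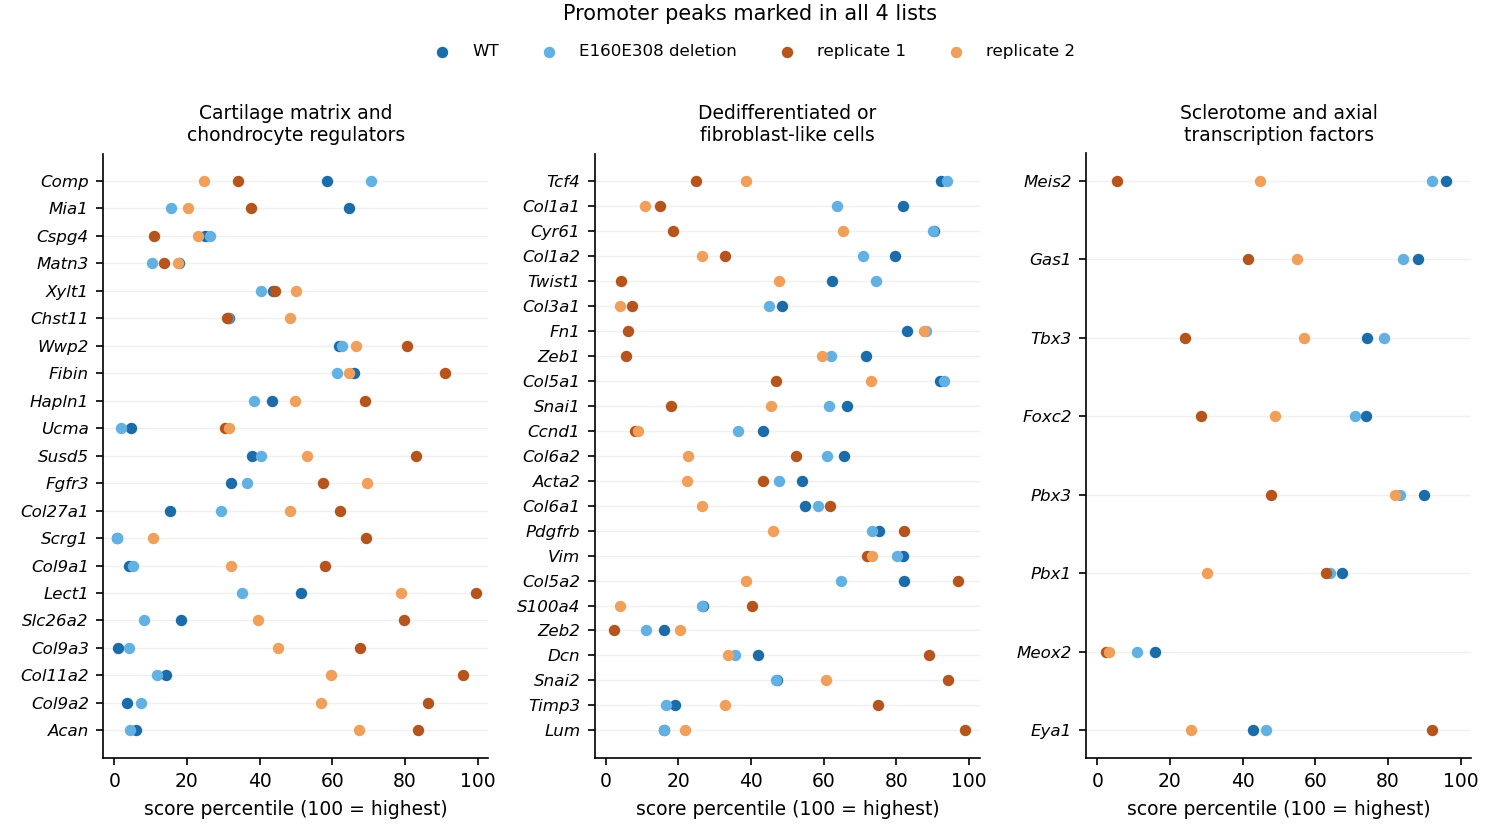
Score percentile (100 is the highest of the 7643 promoters marked in all 4 lists) of each promoter in WT, deletion, replicate 1 and replicate 2, for 3 gene lists, ordered by the difference between the pairs and with 8 of the 9 sclerotome genes shown. At the bottom of the cartilage panel WT and deletion stand left of both replicates, whereas most fibroblast-like and sclerotome genes show WT and deletion to the right.

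Among families by gene symbol, replication-dependent histone genes, which supply new chromatin in S phase, had 14 of 56 promoters marked in WT and deletion among the 443, a share of 25%. These 14 lay at 9 distinct WT peaks in gene clusters. Where promoters were placed by sequence the set also held 14 histone genes, but not the same 14, since Hist1h3a had no match. Histone genes have near-identical copies, and how their reads were placed was not tested, so the count is given as uncertain. Hist1h4a, for example, ranked at 27.8% and 28.5%, with replicate peaks 14.4 kb and 9.45 kb away. Ephrins and Eph receptors had 3 of 11, and calcium and sodium channels 2 of 4. Zinc finger genes, the largest family, had 13 of 276 (4.71%), close to the background. Collagens had 2 of 21, Col8a2 and Col12a1.

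The 34 promoters of the replicate pair are few. Of the 12 with the best weaker rank, 5 had a WT or deletion peak within 2 kb and 6 had none within 5 kb. Snx9, a sorting nexin of endocytosis, was the strongest, at 3.14% in replicate 1, 2.84% in replicate 2 and 5.54% in fibroblasts, yet WT and deletion had no peak within 35.3 kb. Sfi1, a centrosomal gene, ranked at 20.7% and 0.504%, with none within 8.30 kb. Atg7, an autophagy enzyme, ranked at 9.19% and 32.0% with none within 103.5 kb. Ednrb, the endothelin receptor of neural crest derivatives, ranked at 36.9% and 47.5% with none within 162 kb. Tlr6, a Toll-like receptor gene, ranked at 56.6% and 12.1%, and Tmem20 at 44.9% and 59.7%, with none within 9.14 kb and 84.7 kb.

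The other 6 were near misses. Hnrnpm, an RNA-binding protein gene, ranked at 8.14% and 3.11% with a WT peak 1.07 kb away. Lpxn, the focal adhesion protein leupaxin, ranked at 11.3% and 0.616% with one at 1.21 kb, and Efna1, an ephrin ligand, at 26.6% and 41.0% with one at 1.51 kb. Ccdc8 and Cdk14 had a WT peak at 1.13 kb and 1.07 kb, and Flywch2 at 4.17 kb. Below these, chosen after their values were seen, Clec3a, a C-type lectin of cartilage, ranked at 35.3% and 76.3% with no WT or deletion peak within 21.6 kb. Scin, an actin-severing protein, ranked at 17.3% in replicate 1 and 87.9% in replicate 2 with none within 85.4 kb.

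Promoter sequence was described by CpG content and letter matches. A sequence of 300 bases with its start within 1 kb of the compared one was at hand for 289 of the 443, 23 of the 34 and 14493 of all, which is 65.2%, 67.6% and 71.9%, so that these shares do not describe all members. The median ratio of observed to expected CpG was 0.688 for the 443 and 0.738 for the 34, against 0.825 at promoters marked in all 4 lists and 0.242 at those marked in none. Of the 443, 62.3% of those with a sequence exceeded 0.6, against 84.9% of promoters marked in all 4. The GC box was in 69.9% (64.2 to 75.1) of the 443 and in 70.8% of those shared by all 4. The ETS site (CCGGAAG) was in 8.30% (5.39 to 12.1) of the 443, in 23.1% of promoters marked in all 4 and in 12.5% of all promoters. The E-box CAGCTG was in 19.03% (14.67 to 24.04) of the 443, in 12.6% of those marked in all 4, in 16.7% of those marked in none and in 15.01% of all promoters. A TATA box was in 8.65% of the 443, in 5.91% of those marked in all 4 and in 13.3% of all. These are letter matches on both strands, and none of them shows that a factor was bound.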

How the data were processed

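The deposited H3K27ac and H3K4me2 peak lists were used as given, and reads were not used here. Per the study's methods, reads from newborn mouse rib chondrocytes and dermal fibroblasts were mapped to mm9 and peaks called by the authors against input with MACS2 at a q-value of 0.05. The submitters' processing notes name fastp, Bowtie2 2.4.4 and MACS2 2.2.4. The positions of replicate 2 are nevertheless those of GRCm38. The lowest −log10 q-values of 2.05 in WT and 2.01 in deletion are also stricter than a q-value of 0.05. Replicate 2, at 1.33, reaches further down. The score of a peak, as deposited by the authors, is 10 times −log10 of the q-value in the WT, deletion and replicate 2 lists, and has no stated definition in the others. The −log10 p and q columns and the fold enrichment over local background (a ratio) were deposited by the authors in the narrowPeak lists only. No list gives read numbers, so that depth is unknown, and intervals (exact Clopper-Pearson, 95%) cover counting error only.

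Starts were the 5′ ends of protein-coding genes in the annotation of each build, 20156 genes joined by symbol or older symbol, on chromosomes 1 to 19 and X. Ranks, percentiles, overlaps and distances were computed from the lists, with no test. The members and lists were chosen with earlier results of these data known. Genes named were the 12 of each set with the best weaker rank, with no other start within 2 kb and a gene name, then members on a gene list, at most 8 a list. The code was tested on simulated lists. The 16 alternatives changed the window, the peak rule, the thresholds, the gene matching and the libraries. Authors' comparisons were not used. Some genes counted in the lists are not reported here by name.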

Additional observations from a re-analysis of the deposited data

Results flagged for a closer look

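Peaks outside chromosomes 1 to 19 and X entered no comparison. Replicate 1 had 16 peaks on chromosome Y, while replicate 2, WT and deletion had 3 each. On unplaced sequence WT had 20 peaks and deletion 14, against 1 in replicate 1 and 0 in replicate 2. Counts above 3, the limit that a count of 0 allows, brought these values here. The sex of the animals behind each library is not given in the labels, and the build of replicate 2 differs from that of the other lists.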

How the results depend on the processing

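The genotype pair had the larger set in all 16 alternatives, 13 planned and 3 added after the data were seen, with a smallest ratio of 3.97. Of the counts and shares, these moved. Leaving out 1 library gave 443 to 1301 promoters for the genotype pair (443) and 35 to 328 for the replicate pair (34). It gave fibroblast shares of 55.6% to 78.9% (63.9%) and 7.32% to 47.3% (32.4%), H3K4me2 shares of 94.6% to 98.1% (96.8%) and 32.3% to 95.6% (94.1%), and 27 to 78 (27) and 2 to 20 (2) genes on lists. Genes whose start kept the offset of its neighbours between builds gave 262 and 16 promoters. Peak midpoints within 1 kb gave 82 promoters for the replicate pair, H3K4me2 shares of 82.2% and 56.1%, and 13 of its genes on lists. Equal numbers of top peaks gave 68 promoters and 4 listed genes for the replicate pair and a fibroblast share of 70.6% for the genotype pair. The higher-scoring 50% of each list gave 84.6%. Counting as unmarked only promoters with no peak within 5 kb gave 20 promoters, 1 listed gene, and H3K4me2 shares of 99.1% and 100%. RefSeq promoters found in mm9 gave 15 promoters, 16 and 1 listed genes and an H3K4me2 share of 100% for the replicate pair, as did a window of 500 bp (100%). Matching by symbol alone gave 1 listed gene. The cause was not tested. No paired analysis was possible because the libraries of the 2 pairs share no replicate numbers that link them and no test was made. The lists limit what can be seen: a promoter below a threshold is unmarked whatever its signal, and since the labels do not say which libraries share a preparation, pair and preparation cannot be told apart.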
